A study of Mus musculus with 9 samples.

Results

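The 10 genes described here encode the Notch receptors Notch1, Notch2, Notch3 and Notch4, the ligands Jag1, Dll1 and Dll4, and the target transcription factors Hes1, Hey1 and Heyl. They were chosen by symbol. The choice of these genes, and of the pathway and marker lists used below, was made with earlier results of these data known. All 10 were found once each among the 55536 gene identifiers of the count files. The identifiers follow the GENCODE M21 annotation of the mouse genome GRCm38. RNA came from the quadriceps of C57BL/6 mice after volumetric muscle loss, in which a piece of muscle is cut out. There were 4 libraries labelled wild type and 5 labelled Il17ra-/-, a knockout of a receptor subunit for interleukin-17. The labels give all 9 samples the same age, 6 weeks. Treatment and time are given in conflicting ways, as saline with harvest at 1 week in one field and as PCL with collection at 6 weeks in another. The allele behind the knockout is not described in the labels. The design text speaks of animals in triplicate, and no label ties a library to an animal, so p-values measure the spread between these libraries, which may be partly technical.

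Notch signalling works between touching cells. A Delta or Jagged ligand on one cell binds a Notch receptor on its neighbour, the receptor is cut by an ADAM protease and then by gamma-secretase, and the freed intracellular domain joins the DNA-binding protein RBPJ and a Mastermind coactivator to switch on genes such as those of the HES and HEY repressors. In skeletal muscle the pathway is known for keeping satellite cells, the muscle stem cells, in quiescence. In blood vessels Notch1, Notch4 and Dll4 are known from endothelium, and Notch3 from pericytes and smooth muscle, which together are called mural cells. Heyl is expressed both in mural cells and in satellite cells.

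The 9 libraries held 31294089 to 46435401 counts. On the first principal component, with 34.3% of the variance, wild-type replicate 2 lay at 139 and the other 8 libraries between -30.7 and 0.264. On the second, with 17.4% of the variance, Il17ra-/- replicate 1 lay at 89.1, far above all other libraries. Wild-type replicate 2 and Il17ra-/- replicate 1 also had the fewest genes with a count, 17256 and 18248. The gene the labels name as knocked out, Il17ra, went against them, at 208 ± 43.2 CPM (counts-per-million, SD, n = 5) in libraries labelled Il17ra-/- and 96.8 ± 19.7 CPM (n = 4) in the rest (log2 fold change 1.11, edgeR adjusted p = 0.00208). Directions are therefore stated by label only. Muscle transcripts were present but were a small part, with the skeletal actin gene Acta1 at 856 ± 298 CPM under the wild-type label. There, 10 muscle fibre markers summed to 1068 to 2738 CPM. The sum was 59443 to 65224 CPM for 10 markers of fibro-adipogenic progenitors, which build connective tissue in muscle. Transcripts of leukocytes were close to absent. Ptprc, the pan-leukocyte marker, averaged 0.112 and 0.266 CPM under the wild-type and Il17ra-/- labels, and 8 of 10 leukocyte markers had a mean under 1 CPM. In RNA pooled from many cells, fewer cells of a type and less RNA per cell cannot be told apart.

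Of the 10 genes, Notch1, Notch3 and Heyl rose in the libraries labelled Il17ra-/-, by 2.50-fold, 2.20-fold and 1.91-fold. No gene of the 10 fell past the threshold, a Benjamini-Hochberg adjusted p under 0.05 over all genes in edgeR's quasi-likelihood test. At an unadjusted p under 0.05 in the edgeR test 4 members were higher and 0 lower, beside 8.13% and 8.27% of all tested genes. DESeq2 called 4 members higher and 0 lower, beside 3.86% and 3.72% of the genes it tested, and limma-voom 3 and 0, beside 1.39% and 1.72%. Dll4 had too few counts to be tested, and the 9 others averaged over 1 CPM in both groups. The 3 rises among 9 tested members stand beside 217 rises among 16039 tested genes (1.35%), and 491 genes (3.06%) were called in either direction, 1.71% as lower. All 9 tested members had a positive log2 fold change, as did 49.7% of all tested genes, and their median was 0.52 against -0.00273 over all tested genes. The groups did not overlap for Notch1, Notch2, Notch3 and Heyl, each higher in every library labelled Il17ra-/-, a pattern seen in 4.63% of all tested genes (9.18% with either group higher).

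**Figure D1:**
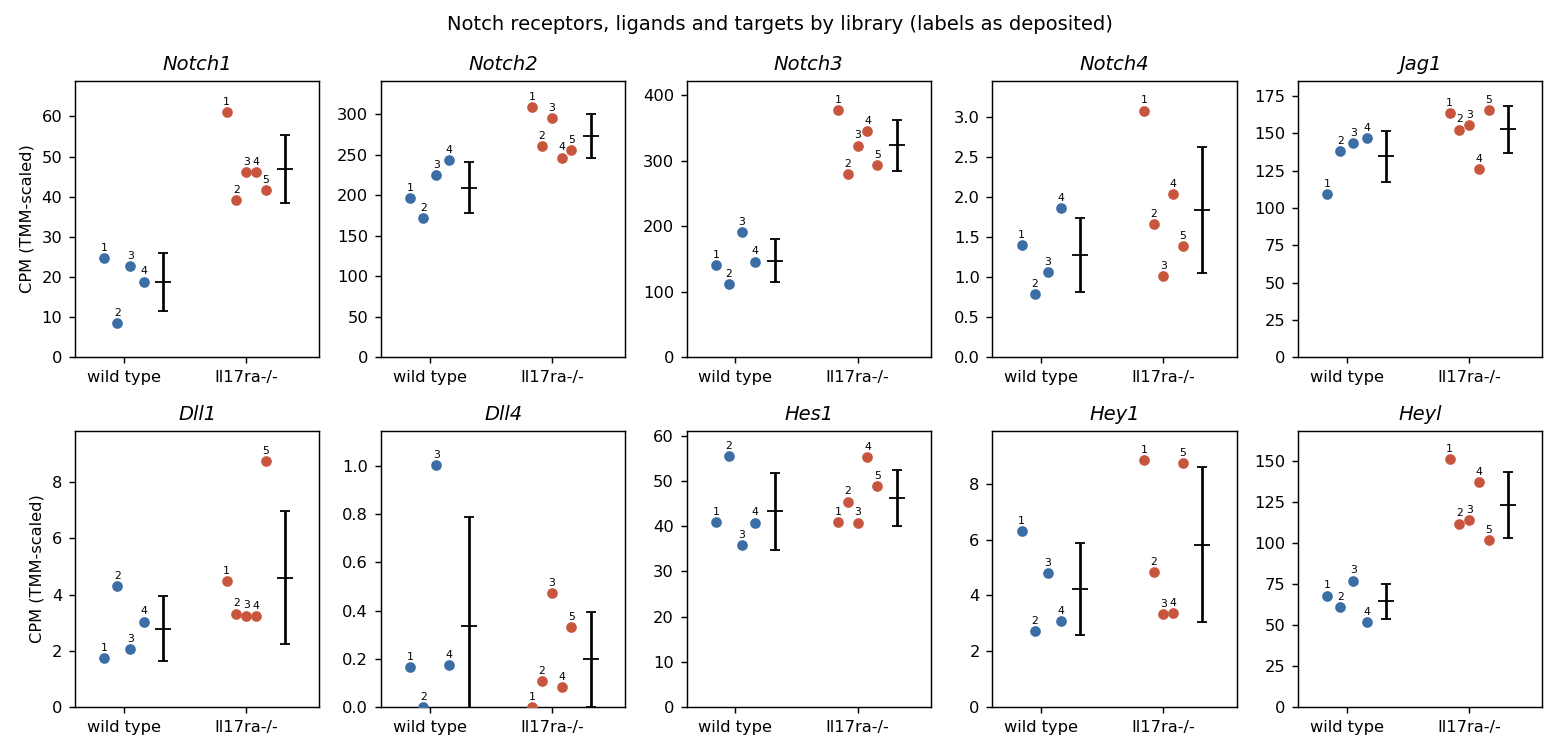
Level of each of the 10 genes in every library, as CPM scaled with TMM factors on linear axes that start at 0. Points are libraries with their replicate number and bars are the mean and SD of 4 (labelled wild type) or 5 (labelled Il17ra-/-) libraries, cut at 0 for Dll4. The groups are separated for Notch1, Notch2, Notch3 and Heyl and overlap for the other genes.

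Among the called members, RefSeq windows were at hand for Notch1 and Notch3. The 250 bases before their start sites, and those of the abundant receptor gene Notch2, which did not pass, are shown on GRCm38.p6, each 5′ to 3′ on the strand of its gene. Capitals mark the GC box, GGGCGG on either strand, a motif bound by Sp1-family factors in many promoters. The windows lie on the minus strand at chr2:26503823-26504072 for Notch1 and chr17:32166891-32167140 for Notch3, and on the plus strand at chr3:98013288-98013537 for Notch2. The Notch1 window lies inside the span over which Notch1 was counted, chr2:26457903-26516663, whose annotation reaches further upstream than this RefSeq start.
Notch1: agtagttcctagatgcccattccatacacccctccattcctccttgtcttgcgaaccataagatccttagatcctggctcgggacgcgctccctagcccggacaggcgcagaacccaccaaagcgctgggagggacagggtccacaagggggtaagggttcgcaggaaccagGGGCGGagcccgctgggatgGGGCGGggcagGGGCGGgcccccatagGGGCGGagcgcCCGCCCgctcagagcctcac
Notch2: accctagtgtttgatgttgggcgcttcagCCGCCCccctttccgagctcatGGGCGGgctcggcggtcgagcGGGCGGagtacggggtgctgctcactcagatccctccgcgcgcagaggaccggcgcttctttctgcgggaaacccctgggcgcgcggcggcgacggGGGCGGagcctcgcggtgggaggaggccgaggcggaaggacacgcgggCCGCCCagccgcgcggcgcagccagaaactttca
Notch3: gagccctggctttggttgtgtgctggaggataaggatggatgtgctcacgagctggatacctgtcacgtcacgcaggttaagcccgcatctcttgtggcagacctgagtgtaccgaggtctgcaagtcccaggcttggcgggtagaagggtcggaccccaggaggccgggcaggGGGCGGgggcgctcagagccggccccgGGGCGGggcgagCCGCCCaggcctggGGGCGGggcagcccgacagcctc
The sequences held 5, 5 and 4 GC boxes for Notch1, Notch2 and Notch3, and their GC content was 66.0%, 72.0% and 68.8% against a median of 52.4% over 32851 promoter windows of this length. Of the other windows, that of Dll4 held 2 GC boxes and those of Notch4, Jag1 and Dll1 held 0, and a GC box stood in 32.7% of all windows. The RefSeq table held 8 windows for 7 of the 10 genes, 2 of them for Dll1, and none for Hes1, Hey1 and Heyl. No window of the 7 genes held the core of the RBPJ motif, TGGGAA on either strand, which 21.6% of all windows held, or the E-box CACGTG read by HES and HEY proteins, which 6.02% held. An AP-1 motif, TGANTCA on either strand, was found in 1 of the 8, a Dll1 window, and in 6.75% of all windows. These matches describe letters in a short window and say nothing of binding.

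Notch1 showed the largest fold change of the receptors. It maps to chr2:26457903-26516663 on the minus strand and has 40 exon blocks once the exons of its 11 annotated transcripts are merged. Its level was 24.7, 8.56, 22.6 and 18.9 CPM in wild-type replicates 1 to 4, and 61.1, 39.2, 46.1, 46.0 and 41.7 CPM in Il17ra-/- replicates 1 to 5. Every library labelled Il17ra-/- was above the highest labelled wild type. Wild-type replicate 2 was the lowest of the 9 and Il17ra-/- replicate 1 the highest, as the latter also was for Notch3 and Heyl. The means were 18.7 ± 7.17 and 46.8 ± 8.50 CPM (SD, n = 4 and 5), and the log2 fold change was 1.32 (SE 0.25, edgeR adjusted p = 0.00951). Without wild-type replicate 2 the log2 fold change was 1.09 with a smaller adjusted p, 0.00107 by the same edgeR test. The call stood on 261 to 2402 counts per library. Exons of 0610009E02Rik and Gm13568 cover 7.50% and 2.91% of the exon bases of Notch1, and those of Gm17276 cover 6.03% for Notch3, and none of these overlapping genes averaged over 0.329 CPM.

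Notch3 had the smallest adjusted p among the 10 genes. It maps to chr17:32120820-32166852 on the minus strand, in 33 exon blocks. The libraries labelled wild type stood at 141, 111, 191 and 146 CPM and those labelled Il17ra-/- at 377, 280.0, 323, 345 and 293 CPM, so that the lowest of the second group was well above the highest of the first. The means were 147 ± 33.0 and 324 ± 39.3 CPM, with a log2 fold change of 1.14 (SE 0.15, edgeR adjusted p = 8.76e-04) on 3384 to 14985 counts per library.

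Notch2 also had separated groups, but the gap was narrow and the gene did not pass. Its values were 196, 172, 225 and 243 CPM with the wild-type label and 309, 260, 295, 246 and 256 CPM in those labelled Il17ra-/-. The highest of the first group, replicate 4, and the lowest of the second, also replicate 4, differed by less than the SD of either group. The log2 fold change was 0.39 (SE 0.12, edgeR adjusted p = 0.123), and DESeq2 called the gene at nearly the same value (0.39, adjusted p = 0.0333). Notch2 maps to chr3:98013527-98150361 on the plus strand.

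Notch4 was scarce. Its 24 to 121 counts per library were 1.40, 0.787, 1.06 and 1.87 CPM in wild-type replicates 1 to 4 and 3.08, 1.66, 1.01, 2.03 and 1.39 CPM in Il17ra-/- replicates 1 to 5, and only replicates 1 and 4 of the second group exceeded the highest of the first. The log2 fold change of 0.52 had an SE of 0.47 (edgeR adjusted p = 0.633), so no change was detectable given the spread between these libraries. Notch4 maps to chr17:34564268-34588503 on the plus strand.

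Compared per exon length, Notch2 and Notch3 made up nearly all of the receptor signal. CPM per kilobase of exon (RPKM) was 19.4 ± 2.92 for Notch2 and 18.2 ± 4.08 for Notch3 in the libraries labelled wild type, and 25.3 ± 2.50 and 40.0 ± 4.85 in those labelled Il17ra-/-. Of the summed RPKM of the 4 receptors, Notch3 held 42.8% to 51.1% in the first group and 56.1% to 61.8% in the second, without overlap. The share of Notch2 moved the other way, from between 45.1% and 53.5% to between 33.1% and 39.1%, although its level did not fall. Notch1 stayed a minor part, at 1.98% to 4.63% and 4.46% to 5.37%, and Notch4 held at most 0.549% in any library. The summed receptor level was 39.0 ± 6.79 RPKM against 68.8 ± 7.26 RPKM. The Notch1 model includes long exons of alternative transcripts, 14.2 kb in all against 8.09 kb for Notch3, which lowers its RPKM.

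**Figure D2:**
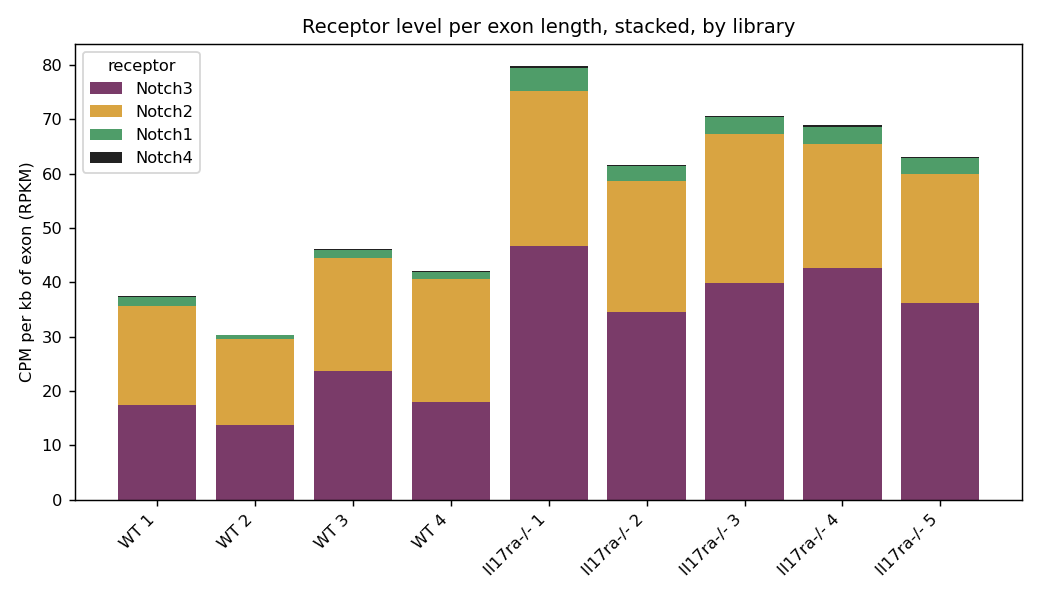
Stacked RPKM of the 4 receptor genes in each library, on a linear axis from 0, with the libraries named by label and replicate number. Notch3 is the largest segment in all 5 libraries labelled Il17ra-/- and the Notch2 and Notch3 segments are of like height in the 4 labelled wild type.

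Among the ligands, Jag1 was abundant and the Delta-like genes were scarce. Jag1, at chr2:137081456-137116644 on the minus strand, stood at 109, 138, 143 and 147 CPM with the wild-type label and at 164, 153, 155, 126.3 and 166 CPM in those labelled Il17ra-/-. Of the second group, 4 libraries were above the highest of the first, and replicate 4 lay inside its range. The log2 fold change was 0.18 (SE 0.12, edgeR adjusted p = 0.480). Jag1 held 92.9% to 97.7% of the summed RPKM of the 3 ligands in every library.

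Dll1 was measured on 63 to 371 counts per library. It stood at 1.73, 4.30, 2.07 and 3.04 CPM with the wild-type label and at 4.48, 3.32, 3.26, 3.23 and 8.75 CPM in those labelled Il17ra-/-, where replicate 5 was far above the rest. The log2 fold change was 0.73 (SE 0.39, edgeR adjusted p = 0.370), and it was 0.37 without Il17ra-/- replicate 5. Dll1 maps to chr17:15367354-15376872 on the minus strand, and 20.5% of its exon bases also belong to exons of A930024N18Rik on the other strand. Reads there fit both genes, and by the counter's default such reads are given to neither.

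Dll4, a ligand of sprouting endothelium, was near the limit of counting. It had 6, 0, 36 and 6 counts in the libraries labelled wild type and 0, 5, 22, 3 and 14 counts in those labelled Il17ra-/-. A count of 0 allows up to 3 counts, which is 0.0959 CPM of the total in wild-type replicate 2 and 0.0752 CPM in Il17ra-/- replicate 1. The highest value was 1.01 CPM in wild-type replicate 3, and the groups overlapped fully. Dll4 maps to chr2:119325784-119335962 on the plus strand.

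Of the 3 targets, Heyl rose, and Hes1 and Hey1 did not pass. Heyl, at chr4:123233556-123249875 on the plus strand, stood at 67.8, 60.9, 77.0 and 51.9 CPM with the wild-type label and at 151, 112, 114, 137 and 102 CPM in those labelled Il17ra-/-, and the groups were separate. The means were 64.4 ± 10.7 and 123 ± 20.2 CPM, and the log2 fold change was 0.94 (SE 0.15, edgeR adjusted p = 0.00264) on 1808 to 5935 counts per library.

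Hes1, a target in many tissues that other signals also induce, differed little between the groups. The values were 40.9, 55.5, 35.7 and 40.8 CPM against 40.8, 45.4, 40.8, 55.3 and 48.8 CPM, and no library labelled Il17ra-/- exceeded the highest labelled wild type, replicate 2. With a log2 fold change of 0.10 and an SE of 0.14 (edgeR adjusted p = 0.787), the estimate for Hes1 was well below those of Heyl, Notch1 and Notch3; the difference between genes was not tested. Hes1 maps to chr16:30064384-30067796 on the plus strand. Hey1, at chr3:8663359-8667256 on the minus strand, stood at 6.30, 2.72, 4.81 and 3.07 CPM against 8.85, 4.83, 3.32, 3.36 and 8.73 CPM. Replicates 1 and 5 of the second group were high and the other 3 lay within the range of the first (log2 fold change 0.46, SE 0.37, edgeR adjusted p = 0.582).

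Ordered by RPKM over all 9 libraries, the genes fell into an abundant set of 5 and a scarce set of 5. Notch3 (30.3), Jag1 (24.8), Notch2 (22.7), Hes1 (22.0) and Heyl (19.0) were above at least 86.6% of all tested genes, and Notch1 (2.41), Hey1 (1.57), Dll1 (0.900), Notch4 (0.197) and Dll4 (0.0674) followed. Heyl, the last of the first set, was above Notch1 in all 9 libraries. Within the abundant set the order differed between labels. Notch3 was below Jag1 in all 4 libraries labelled wild type and above it in all 5 labelled Il17ra-/-. Jag1 was above Notch2 in all 4 of the first group and in 2 of 5 of the second, and Hes1 above Heyl in all 4 and in 3 of 5. Notch2 and Hes1 did not differ beyond their spread under either label, with Notch2 above in 2 of 4 and 3 of 5 libraries. Notch3 stood in place 4 in the first group and in place 1 in the second.

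The other genes of the pathway were described from lists of 47 genes, of which 43 were tested. Maml1 rose, and the other 42 did not pass in either direction. This 1 call in 43 is near the 3.06% of all tested genes. At an unadjusted p under 0.05, 7 were higher and 1 lower, beside the 8.13% and 8.27% of all tested genes, and DESeq2 called 3 rises and limma-voom 1. The median log2 fold change of the 43 was 0.06, with 26 positive. Maml1, a Mastermind coactivator of the Notch complex, went from 37.5 ± 3.30 to 52.0 ± 4.71 CPM (log2 fold change 0.47, SE 0.11, edgeR adjusted p = 0.0346). The call was lost in 8 of 19 other settings, among them the fits without wild-type replicate 3 or 4 and without Il17ra-/- replicate 1, 2, 3 or 4, and the highest adjusted p over the 19 was 0.0891.

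The nuclear complex was the list with the most positive values, 9 of 10 with a median of 0.33. Maml2, a second Mastermind gene, had separated groups and a log2 fold change of 0.56 (SE 0.15, edgeR adjusted p = 0.0600), and it passed in 5 of 19 other settings. Rbpj, the DNA-binding partner of all Notch receptors, stood at 132 ± 16.5 and 137 ± 6.39 CPM (0.06, adjusted p = 0.840). None of the 10 genes that cut the receptor, the ADAM proteases, furin and the gamma-secretase subunits, passed, and none did at an unadjusted p under 0.05 or with DESeq2 or limma-voom. Their values ran from -0.32 for Psenen, a gamma-secretase subunit with adjusted p = 0.371, to 0.59 for Aph1c, and Furin had 0.17 (adjusted p = 0.419).

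None of 5 glycosyltransferase genes that modify the receptors passed, with edgeR at an unadjusted p under 0.05 as with DESeq2 and limma-voom. Pofut1, which adds fucose to Notch, had a log2 fold change of -0.22 (edgeR adjusted p = 0.306) and Rfng, a fringe gene, one of -0.13 (adjusted p = 0.746). Of the 12 genes of endocytosis and ubiquitin ligases none passed, 3 were higher at an unadjusted p under 0.05, and DESeq2 called 1 rise and limma-voom 0. These included Neurl1b, a ligase that acts on ligands (0.77, SE 0.23, edgeR adjusted p = 0.0962; adjusted p = 0.0251 with DESeq2), and Dtx4, a Deltex gene (0.31, edgeR adjusted p = 0.177). The other ligands held 3 tested genes and no call by any of the 3 tools. Dlk1, a membrane protein related to Delta, had -0.40 (edgeR adjusted p = 0.272) and was the 1 gene lower at an unadjusted p under 0.05, and Jag2 had 1.01 with an SE of 0.69.

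No other target passed. Hes6, a HES family gene, stood at 13.1 ± 6.05 and 10.4 ± 1.35 CPM under the wild-type and Il17ra-/- labels (log2 fold change -0.33, SE 0.25, edgeR adjusted p = 0.549), and its log2 fold change was 0.02 without wild-type replicate 2. Hey2 stood at 0.761 ± 0.744 CPM under the wild-type label and 2.72 ± 1.51 CPM under Il17ra-/- (log2 fold change 1.83, SE 0.84, edgeR adjusted p = 0.298). Nrarp, a feedback inhibitor of the pathway, stood at 0.707 ± 0.682 and 1.68 ± 0.377 CPM (1.24, SE 0.66, adjusted p = 0.378). None of the 3 tested genes of this list passed by any of the 3 tools, Hey2 was higher at an unadjusted p under 0.05, and Hes5 had no more than 3 counts in any library.

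**Figure D3:**
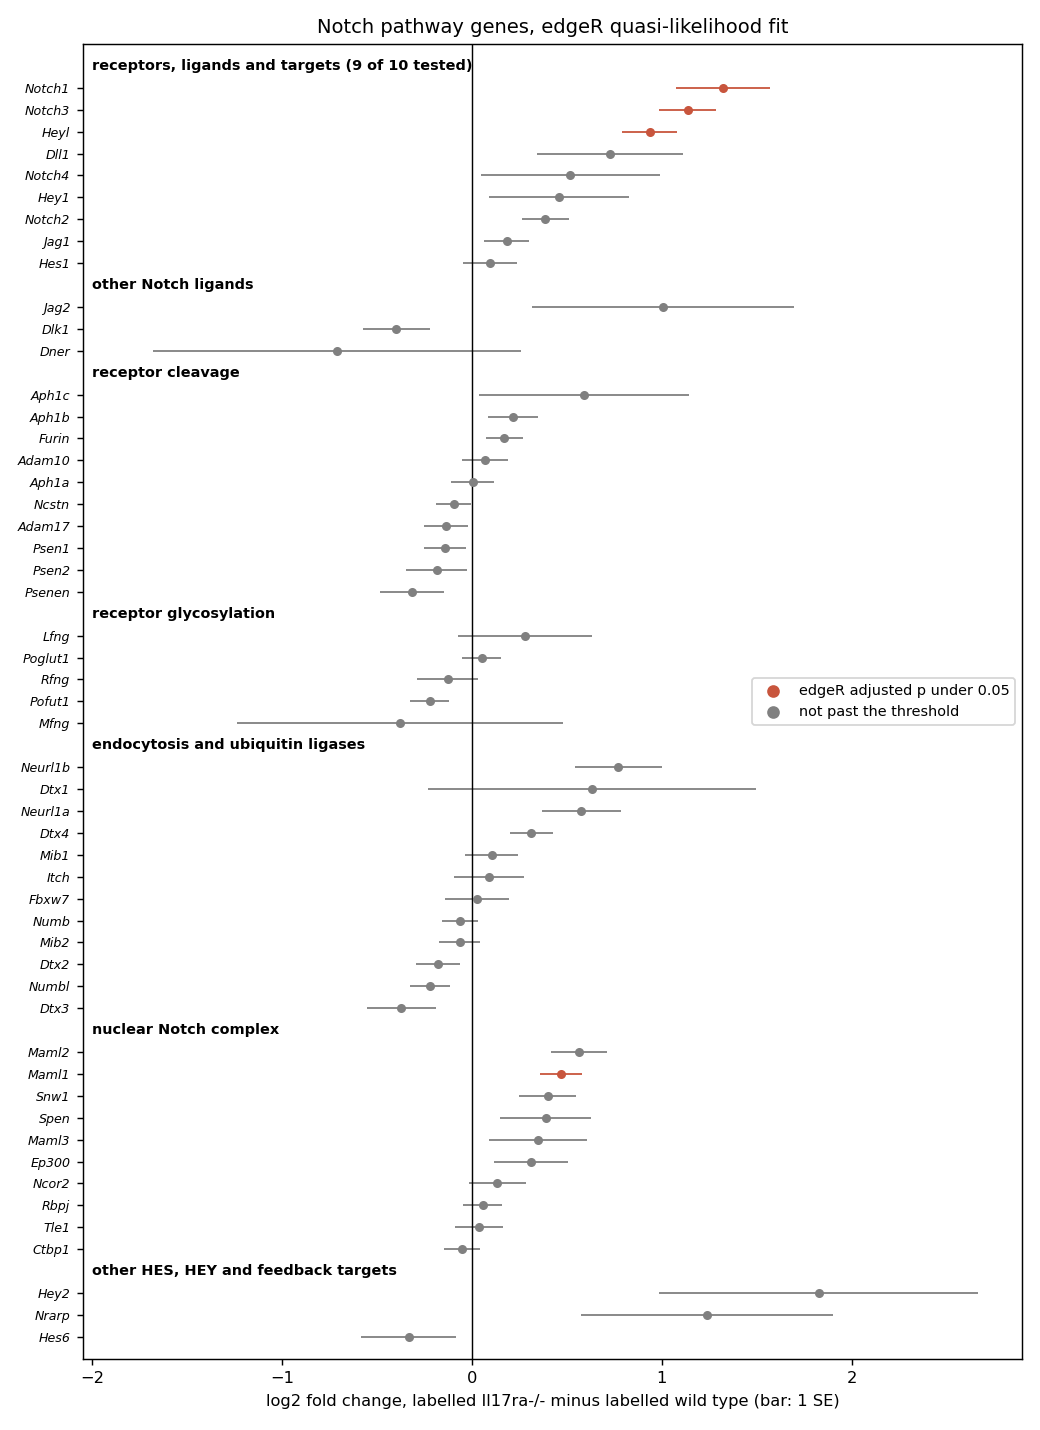
Log2 fold change of the 9 tested receptor, ligand and target genes and of 43 other pathway genes, labelled Il17ra-/- minus labelled wild type, with bars of 1 SE from the edgeR fit. Notch1, Notch3, Heyl and Maml1 are coloured as past an adjusted p of 0.05, and no gene of receptor cleavage or glycosylation is, with values from -0.38 for Mfng to 0.59 for Aph1c.

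Mural cell, satellite cell and muscle fibre markers included genes that rose beside these receptors, and endothelial markers did not. Over all tested genes, 1.35% were called higher and 1.71% lower. Of 10 mural cell markers 6 rose and none fell. At an unadjusted p under 0.05 in the edgeR test 7 were higher and 0 lower, and DESeq2 called 7 rises and limma-voom 6. The list summed to 1548 to 1790 CPM with the wild-type label and 2333 to 3024 CPM in the others. The 6 that rose with edgeR were Myh11, the smooth muscle myosin (1.11), Kcnj8 (0.99), Abcc9 (0.77), Rgs5 (0.82), Mcam (0.64) and the proteoglycan gene Cspg4 (0.60). Kcnj8 and Abcc9 encode subunits of a pericyte potassium channel. The call of Abcc9 was lost without wild-type replicate 1 or Il17ra-/- replicate 1, 3 or 4, and that of Cspg4 without wild-type replicate 4 or Il17ra-/- replicate 1 or 4, with adjusted p of at most 0.0681. That of Mcam was lost with the replicate number as a block (edgeR adjusted p = 0.0744). Without wild-type replicate 2 and Il17ra-/- replicate 1, the libraries that stood apart, Notch3 still had a log2 fold change of 0.96 (edgeR adjusted p = 9.38e-04), Heyl 0.83 (adjusted p = 0.00620) and Notch1 0.97 (adjusted p = 7.18e-04). Of 10 satellite cell markers 3 rose, namely Pax7 (0.93), Cdh15 (0.94) and Itga7 (0.70). Going the other way, Sdc4, a syndecan gene, was lower in all 5 libraries labelled Il17ra-/- without overlap (-0.40, edgeR adjusted p = 0.114), and DESeq2 called it lower (adjusted p = 0.0360). Over the satellite cell list, 7 genes were higher and 1 lower at an unadjusted p under 0.05. The summed level was 379 to 486 CPM against 445 to 576 CPM. Of 10 muscle fibre markers 5 rose, Acta1, Myh2, Myh7, Tnnt1 and Mb, with a sum of 1068 to 2738 CPM against 3197 to 4219 CPM. All 10 had a positive log2 fold change, with a median of 1.10 and a highest value of 3.07. At an unadjusted p under 0.05 in the edgeR test 9 were higher and 0 lower, and DESeq2 called 6 rises and limma-voom 7. The call of Acta1 was lost in 6 of 19 other settings, namely without wild-type replicate 3, without Il17ra-/- replicate 1, 2, 3 or 4 and with the replicate number as a block.

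No endothelial marker of the 11 tested passed with edgeR, 1 was higher and 1 lower at an unadjusted p under 0.05, DESeq2 called 1 higher and limma-voom none, and the summed level was 279 to 472 CPM against 332 to 396 CPM. Most of that sum was Tek, at 295 ± 66.5 and 294 ± 36.5 CPM. The defining marker Pecam1 stood at 2.38 ± 0.730 and 1.34 ± 0.477 CPM, and 6 of 12 markers (Tie1, Emcn, Cldn5, Erg, Sox17 and Egfl7) had a mean under 1 CPM. Of 10 markers for fibro-adipogenic progenitors 1 fell, Pi16, a call lost without wild-type replicate 3 or Il17ra-/- replicate 1, 3 or 4. The list summed to 59443 to 65224 CPM against 48366 to 65269 CPM. Only 2 of the 10 had a positive log2 fold change, and the median was -0.12. At an unadjusted p under 0.05 in the edgeR test 0 were higher and 3 lower, and DESeq2 and limma-voom each called 1 lower. No marker of 8 for Schwann cells passed, 3 were lower at an unadjusted p under 0.05, and DESeq2 and limma-voom called none. Of 7 tested leukocyte markers 1 passed, Cd68, which fell from 17.9 ± 5.20 to 2.58 ± 1.01 CPM. Of that list 4, Ptprc, Adgre1, Csf1r and C1qa, had positive values on at most 77 counts per library, and the median of the 7 was 0.75.

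To set the receptors beside these markers, the log2(CPM + 1) of a gene minus the mean log2(CPM + 1) of a marker list was taken in each library and compared between labels. Exact permutation tests, two-sided, ran over every split of the 9 libraries, which allows no p under 0.0159, with Benjamini-Hochberg adjustment over the 6 comparisons made. Markers with a mean under 1 CPM were left out. Relative to 10 mural markers, Notch3 stood at 0.80 ± 0.39 in the libraries labelled wild type and 1.28 ± 0.14 in the others, a difference of 0.48 that did not pass (exact permutation p = 0.0317, adjusted p = 0.0635). The value of wild-type replicate 3, 1.17, was above the lowest of the second group, 1.15. Without wild-type replicate 2 the difference was 0.31. The mural list itself differed by 0.67 on the same scale. Heyl relative to the same list went from -0.37 ± 0.19 to -0.11 ± 0.18, a difference of 0.26 (exact permutation p = 0.111, adjusted p = 0.133).

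Notch1 was higher relative to both lists it was compared with. Relative to 6 endothelial markers it stood at 0.20 ± 0.58 in the libraries labelled wild type and 1.70 ± 0.16 in those labelled Il17ra-/- (difference 1.501, exact permutation p = 0.0159, adjusted p = 0.0476, higher in 5 of 5 libraries than in any of the other group). Relative to 10 satellite cell markers it stood at -0.41 ± 0.64 and 0.42 ± 0.09 (difference 0.83, exact permutation p = 0.0159, adjusted p = 0.0476), again without overlap. The endothelial list itself differed by -0.14 and the satellite cell list by 0.53 on the same scale. The endothelial comparison therefore largely repeats the rise of Notch1 itself and adds little to its call. Both comparisons use the same Notch1 values and stood at the smallest p the splits allow. Over 6 comparisons, 1 alone at that p would not pass after adjustment. Each pass thus depended on the other, and they are not separate results. With any 1 library left out neither comparison passed, since fewer splits were possible. The satellite cell difference was 0.52 without wild-type replicate 2, whose own value was -1.33. Notch4 and Dll4 relative to the endothelial list differed by 0.44 (exact permutation p = 0.0952, adjusted p = 0.133) and 0.02 (exact permutation p = 0.952, adjusted p = 0.952). These values compare levels within a library and do not tell which cells the transcripts came from; the part of muscle fibre and mural cell content in the rise of Notch1 was not tested.

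**Figure D4:**
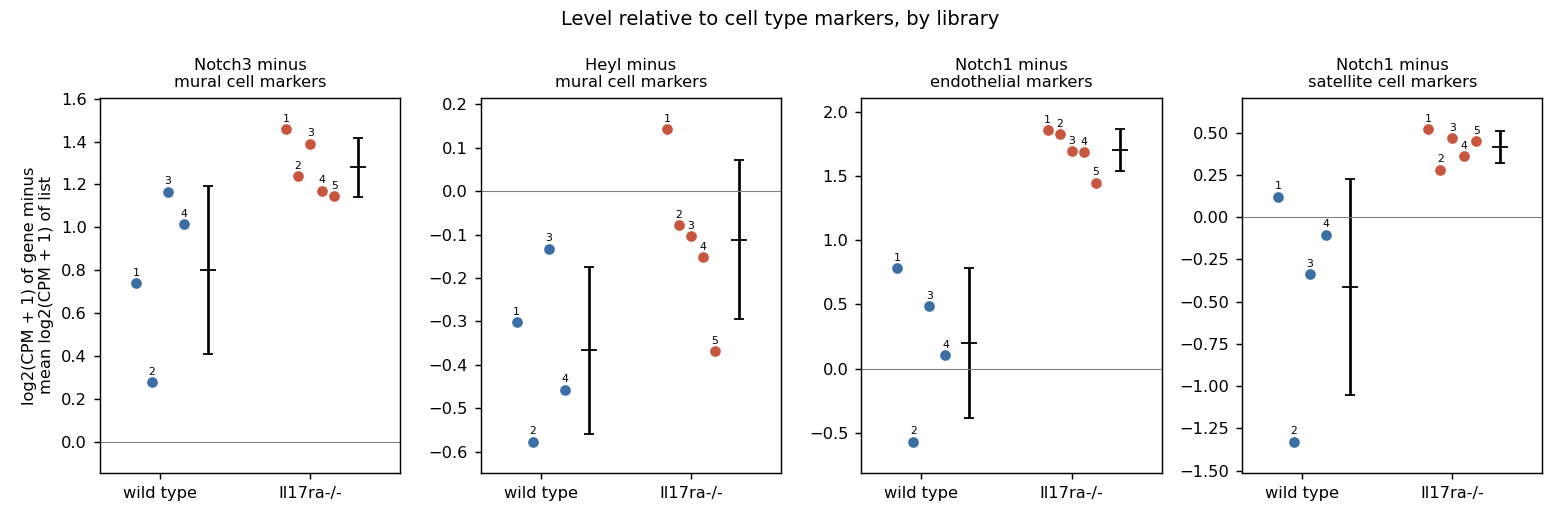
Level of Notch3, Heyl and Notch1 relative to marker lists, as log2(CPM + 1) of the gene minus the mean of the list, for each library with its replicate number and with the mean and SD of each group. Notch1 is separate between the labels for both lists, while 1 library labelled wild type lies among those labelled Il17ra-/- for Notch3, the groups overlap for Heyl, and wild-type replicate 2 is the lowest in all 4 panels.

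The genes whose levels ran most like those of the 3 called members were found by the root mean square difference of log2(CPM + 1), centred on each gene's mean, over the 9 libraries and 12530 genes. For Notch1 they included Ano1, a chloride channel gene (0.16), and Trim54 (0.22). Those closest to Notch3 were Pax7, the transcription factor of satellite cells (0.14), Pde4d (0.17) and the smooth muscle gene Myh11 (0.17). Heyl was nearest to Inka2 (0.14), the fatty acid transporter gene Cd36 (0.15) and Pde4d (0.15). Pde4d, a phosphodiesterase gene, was thus near both Notch3 and Heyl (log2 fold change 1.11, edgeR adjusted p = 0.00422). These genes were picked for their likeness over the same 9 libraries, so a rise like that of the members follows from the choice.

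The calls of Notch1, Notch3 and Heyl were made in each of 19 other settings, which changed the scaling, the filter, the test or the libraries. Notch1 ranged from 0.97 to 1.49 with a highest adjusted p of 0.0303, Notch3 from 0.96 to 1.29 with 0.00414, and Heyl from 0.83 to 1.04 with 0.0104. The values of the other 6 tested genes stayed positive in every setting, but 5 of them moved by over 1.5 times with 1 library left out. Without Il17ra-/- replicate 1, Notch4 had 0.25 and Hey1 0.26, and Notch4 ranged from 0.25 to 0.76 and Hey1 from 0.26 to 0.72 with any 1 library left out. Jag1 had 0.10 without wild-type replicate 1, and Hes1 had 0.02 without wild-type replicate 3 or Il17ra-/- replicate 4 and 0.24 without wild-type replicate 2. Without both libraries that stood apart, Notch4 and Hey1 had 0.08 and 0.10.

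**Figure D5:**
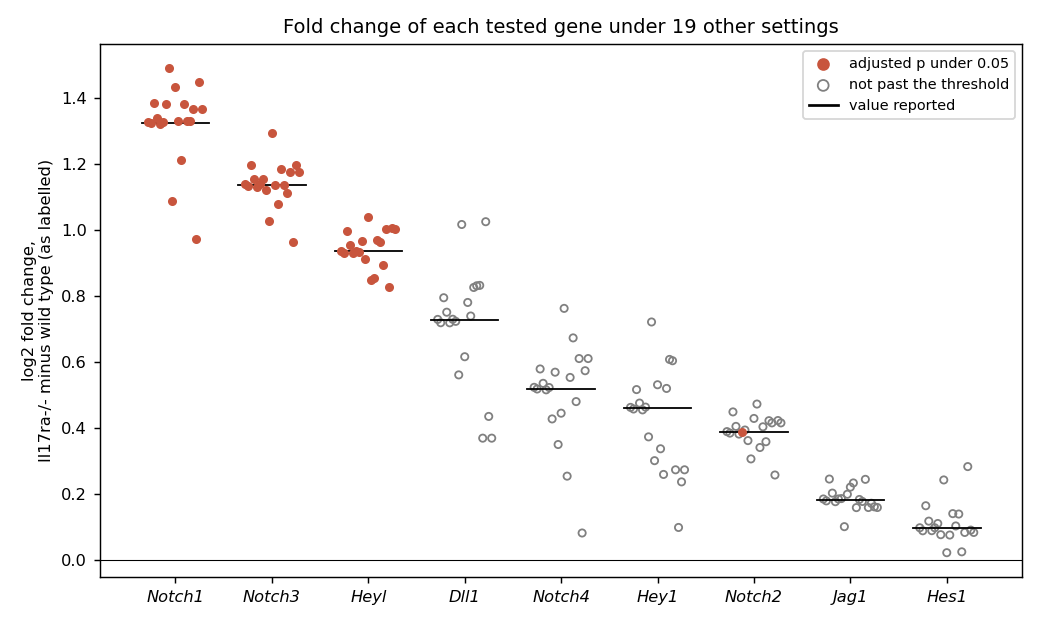
Log2 fold change of the 9 tested genes in 19 other settings (points) beside the value reported (line), with filled points where the adjusted p was under 0.05. All points of Notch1, Notch3 and Heyl are filled, 1 point of Notch2 is, and none of the other genes.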

How the data were processed

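The members, the pathway genes and the marker lists were chosen with earlier results of these data known. Libraries were made with TruSeq v2, which does not mark strand, per the labels' protocols, and the submitters' processing notes name STAR. The deposited files hold read counts for each gene, which the authors obtained with featureCounts 1.6.0 over GENCODE M21 exons, for read pairs and without strand, per the file headers. Reads that fit several places or genes are left out by that tool's defaults, and antisense reads are not separated.

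Counts were filtered with filterByExpr (16039 genes kept), scaled with TMM and compared with edgeR 4.0.16 (quasi-likelihood, genotype label as the only term, all 9 libraries, R 4.3.3). CPM use the TMM factors, and RPKM divides them by exon length. Log2 fold changes are Il17ra-/- minus wild type as labelled, with the SE taken from the F value. DESeq2 1.42.0 and limma 3.58.1 were alternatives. The procedure was tested on simulated data. Named genes were all 10 members, Il17ra, called markers and pathway genes, the 2 smallest p of each pathway list and the 3 genes most like each called member; other names were chosen after their values were seen. One gene that this rule names is not reported here. No 2 replicates agreed within sampling noise (chi-square per degree of freedom of at least 29.5).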

Additional observations from a re-analysis of the deposited data

Results flagged for a closer look

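Dll1 in the library labelled Il17ra-/- replicate 5 stood at 8.75 CPM while the other 4 libraries with that label lay between 3.23 and 4.48 CPM, a gap of 0.774 of the group's range, past Dixon's critical value for 5 samples. The 20 groups of values examined would give about 1 such library in 20 by chance, and this was the 1 found.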

How the results depend on the processing

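Of 16039 tested genes 491 were called, against 1026 with DESeq2 and 275 to 567 when 1 library was left out (323 without Il17ra-/- replicate 1 and 275 without replicate 3). Scaling by library totals alone moved the share of calls that were lower from 55.8% to 41.3%. The 3 rises among the members were found in all 19 settings, with Notch2 as a further one in DESeq2 (0.39, adjusted p = 0.0333). Maml1 was the 1 other pathway gene called. That count was 2 with library totals only, 2 without a filter on low counts, 3 with DESeq2, 0 without both libraries that stand apart and 0 to 2 with 1 library left out. It was 0 with the replicate block and 2 without it on the same libraries numbered 1 to 4, a setting chosen after seeing the data. No label states a pairing of same-numbered libraries, and their correlations, -0.02 to 0.06, did not settle whether there was one. Of 4 wild-type libraries 2 correlated best with their own number. The block called 366 genes, with Notch1, Notch3 and Heyl among them. Notch1 relative to endothelial markers ranged from 1.24 to 1.70 and relative to satellite cell markers from 0.52 to 1.01 with 1 library left out, and neither passed, since fewer splits allow no p under 0.0286. Counts were low for the scarce members, at 24 to 121 per library for Notch4 and 0 to 36 for Dll4.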
